A study of Mus musculus with 6 samples.

Results

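The T-cell checkpoint and exhaustion genes are taken here as 10 genes given by name: Pdcd1, Ctla4, Lag3, Havcr2, Tigit, Cd160, Btla, Entpd1, Tox and Cd274. All 10 were found once each among the 34245 genes of the expression table. The RNA came from lymph nodes of 3 terminally sick Dnmt3b+/- mice of the FVB strain with peripheral T-cell lymphoma (PTCL), a tumor of mature T cells. These mice carry a germline knockout of a single Dnmt3b allele in all their cells, so the lesion is not limited to T cells. The 3 libraries are from independent tumors and are called tumors 1, 2 and 3, numbers that carry no order. Ages of these mice are not given in the sources used here. Bisulfite sequencing of 2 Dnmt3b+/- PTCL and 1 Dnmt3a-/- PTCL was not analysed here, nor were control T cells, so nothing below is a change against normal tissue and no test between groups was possible.

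Immune checkpoints are receptors that T cells place on their surface after activation and that dampen signaling from the T-cell receptor when they meet a ligand on another cell. Under lasting antigen exposure, as in chronic infection or cancer, T cells can keep several of these receptors at once and lose effector function, a state called exhaustion that depends on the nuclear factor TOX. Antibodies that block PD-1, CTLA-4 or PD-L1 are in clinical use, and in T-cell lymphoma the receptors may sit on the tumor cells themselves as well as on bystander T cells.

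Expression is given in FPKM. This is the number of fragments on a gene, scaled by exon length and library depth and without a logarithm. Where 3 values stand in a row without tumor numbers, they are those of tumors 1, 2 and 3. The depths recovered from the values were 30726570, 18969988 and 20770928 reads. Dnmt3b, the targeted gene, had 0.975, 1.55 and 1.25 FPKM in tumors 1, 2 and 3, which covers both alleles and does not separate them. All 10 genes of a T-cell marker list were above 1 FPKM in every tumor, against 76.2% of the 12743 genes with a mean of at least 0.5 FPKM. They summed to 1515, 1232 and 1652 FPKM in tumors 1, 2 and 3, and the most abundant was Cd8b1, a chain of the CD8 coreceptor, with 348 ± 158 FPKM (SD, n = 3).

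The 10 genes were not all highest in the same tumor. Tumor 1 had the highest level of Ctla4, Pdcd1, Lag3, Havcr2 and Btla, and tumor 2 had the highest level of Tigit, Cd160, Entpd1, Tox and Cd274. Tumor 3 was highest for 0 of the 10 genes and lowest for 6, though for Havcr2 tumors 2 and 3 are too close to order and change places with median-of-ratios scaling. Among the 12743 genes, the highest tumor was tumor 1 for 50.5%, tumor 2 for 34.1% and tumor 3 for 15.4%, and tumor 3 was lowest for 38.6%. A split between tumors 1 and 2 is thus not particular to the 10 genes. The split of the 10 genes between tumors 1 and 2 was the same after each of 2 rescalings of the libraries, but per unit of CD3 chain RNA Cd274 was highest in tumor 1.

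Range over the tumors was wide. For 9 of the 10 genes the highest tumor had at least 2 times the FPKM of the lowest, against 38.6% of the 12743 genes, and the median ratio was 4.50 for the 10 genes and 1.73 for all. The exception was Cd274, with 1.79. Per unit of CD3 chain RNA the count was also 9, but with Cd274 at 2.21 in and Tox at 1.79 out, and the share of all genes was 52.8%. Without tumor 2 the count was 5 of 10, with 20.6% of all genes past the same ratio. For 3 of the 10 genes, Ctla4, Havcr2 and Pdcd1, over 60% of the sum of the 3 values came from tumor 1, and a share this large in any tumor was found for 11.2% of all genes. Tigit, with 59.9%, Entpd1, with 59.5%, and Lag3, with 58.6%, were just under this share, and Pdcd1, with 67.6%, was the nearest above it. With median-of-ratios scaling Tigit and Entpd1 passed it too, in tumor 2, which gave 5 genes against 10.6% of all. Rescaled to a fixed sum or taken per unit of CD3 chain RNA, Lag3 passed it instead, in tumor 1 with 61.4% and 65.2%, which gave 4 genes each time against 12.4% and 14.4% of all. With only 2 tumors a share over 60% is reached more easily, and the count was 8 without tumor 1, 8 without tumor 2 and 9 without tumor 3, against 37.4%, 39.5% and 51.7% of all genes. In total, 7 of the 10 genes were above 1 FPKM in every tumor, against 76.2% of all genes, and each of the 10 was above 1 FPKM in tumor 1. In bulk tissue, fewer cells of a type and less RNA per cell cannot be told apart.

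**Figure D1:**
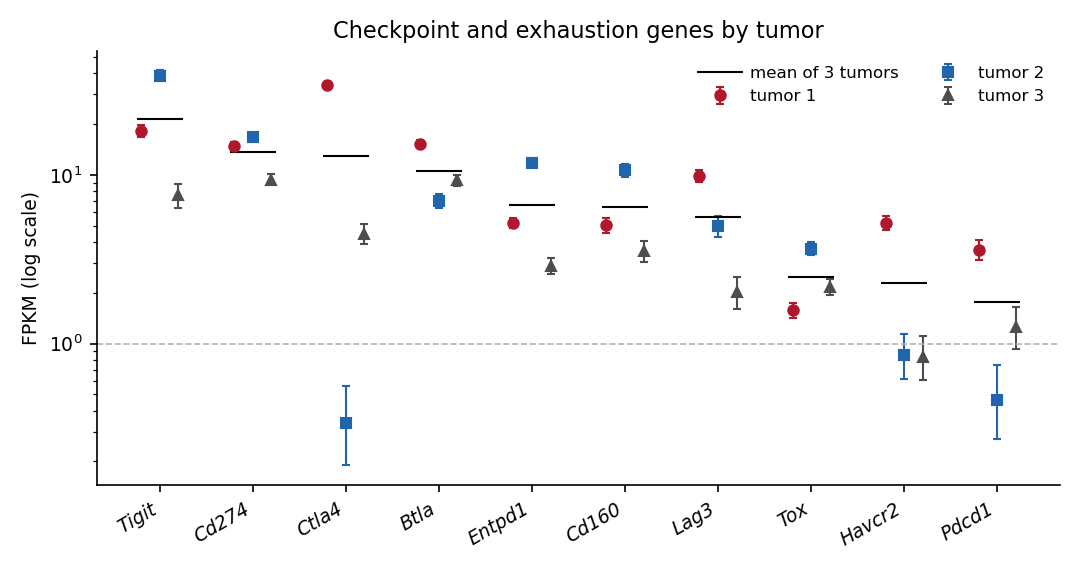
FPKM of the 10 genes in each tumor, on a log axis, ordered by their mean. Points are tumors, whiskers are 95% counting intervals, the black line is the mean of 3 tumors and the dashed line is 1 FPKM. Ctla4 runs from 0.339 FPKM in tumor 2 to 34.0 in tumor 1, while Cd274 stays between 9.36 and 16.7.

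Ctla4 (ENSMUSG00000026011) had the widest range of the 10 genes. It encodes CTLA-4, which competes with the costimulatory receptor CD28 for the ligands CD80 and CD86 and is abundant on regulatory T cells. Its level was 34.0, 0.339 and 4.46 FPKM in tumors 1, 2 and 3, a mean of 12.9 ± 18.4 FPKM (SD, n = 3). Tumor 1 thus stood far above the others, and tumor 2 was close to silent for this gene. The values rest on 2437, 15 and 216 reads, and the 95% counting interval of tumor 2 was 0.190 to 0.560 FPKM. The ratio of tumor 1 to tumor 2 was 100.3, and the nearest ends of their counting intervals were 58.4 times apart. Of the 12743 genes, 99.2% had a smaller ratio. Such intervals, and the limits given for genes with 0 reads, cover counting error only.

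Cd28 gave a flat line beside it. The level of Cd28 was 22.2, 21.2 and 21.6 FPKM in tumors 1, 2 and 3, so the ratio of Ctla4 to Cd28 was 1.53, 0.0160 and 0.207 in tumors 1, 2 and 3. Icos, a costimulatory relative on the same stretch of chromosome 1 and singled out after its values were seen, had 15.9, 2.03 and 5.21 FPKM, the same order of tumors as Ctla4. Foxp3, the lineage factor of regulatory T cells, was singled out in the same way and had 5.12, 1.07 and 3.32 FPKM in tumors 1, 2 and 3. The order of tumors was again that of Ctla4, but the ratio of Ctla4 to Foxp3 was 6.65, 0.317 and 1.34 in tumors 1, 2 and 3, so the 2 genes did not scale together. Of 6 regulatory T-cell markers, 5 were highest in tumor 1, against 50.5% of all genes, and the list summed to 67.6, 36.5 and 23.3 FPKM. Il2ra, for a chain of the IL-2 receptor that activated T cells carry too and singled out after its values were seen, had 43.2, 9.98 and 1.96 FPKM. Without it, an alternative chosen after seeing the data, the other 5 summed to 24.3, 26.5 and 21.3 FPKM. This sum was highest in tumor 2, although 4 of the 5 genes were highest in tumor 1, against 50.5% of all genes. The most abundant gene of the list by mean was Tnfrsf18, with 16.6, 24.8 and 17.7 FPKM, which also is on the costimulatory list. Most of the sum without Il2ra came from Tnfrsf18 in each tumor. Ccr8, counted as highest in tumor 1, had 3, 0 and 1 reads in tumors 1, 2 and 3. Its counting intervals all overlap, so its tumors cannot be put in order. Lrrc32 had 0 reads in tumor 3. The part of regulatory T cells in the Ctla4 values was not tested.

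Pdcd1 (ENSMUSG00000026285), the gene of the receptor PD-1, had the lowest mean of the 10 genes over all 3 tumors, though not without tumor 1 or without tumor 2. Its level was 3.57, 0.464 and 1.25 FPKM in tumors 1, 2 and 3, with a mean of 1.76 ± 1.62 FPKM (SD, n = 3). Its order of tumors was that of Ctla4, and 17 reads in tumor 2 gave a counting interval of 0.270 to 0.743 FPKM, below that of either other tumor. Its ligand gene Cd274, for PD-L1, was more abundant in every tumor (ENSMUSG00000016496). Cd274 had 14.9, 16.7 and 9.36 FPKM in tumors 1, 2 and 3, with a mean of 13.7 ± 3.83 FPKM (SD, n = 3). It was the most even of the 10 genes, with a ratio of 1.79 between highest and lowest tumor. The ratio of Cd274 to Pdcd1 was 4.17, 36.0 and 7.50 in tumors 1, 2 and 3. The other PD-1 ligand gene, Pdcd1lg2, lies next to Cd274 on chromosome 19 and did not follow it, with 2.51, 0.673 and 0.966 FPKM in tumors 1, 2 and 3.

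Lag3 (ENSMUSG00000030124) encodes LAG-3, a relative of CD4 that binds MHC class II. Its level was 9.86, 4.95 and 2.01 FPKM in tumors 1, 2 and 3, with a mean of 5.61 ± 3.97 FPKM (SD, n = 3). The counting intervals of the 3 tumors did not overlap. Cd4, its neighbour on chromosome 6, had 28.4, 4.28 and 8.22 FPKM, so tumors 2 and 3 took the opposite order in the 2 genes. The MHC class II genes, ligands of both, were highest in tumor 1, with H2-Aa at 56.1, 21.6 and 37.5 FPKM, H2-Ab1 at 83.5, 34.4 and 30.7, and H2-Eb1 at 3.85, 1.34 and 2.60. These are polymorphic genes, and FVB reads were aligned to a reference of another strain, so their levels are uncertain. Of the other LAG-3 ligands on the list, Lgals3, for galectin-3, had 7.64, 18.6 and 2.51 FPKM and was highest in tumor 2. Fgl1 had 0 reads in all 3 tumors, with counting intervals that end at 0.0271, 0.0439 and 0.0401 FPKM in tumors 1, 2 and 3.

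Havcr2 (ENSMUSG00000020399) encodes TIM-3, a receptor of exhausted and effector T cells that is also expressed by macrophages and dendritic cells. Its level was 5.17, 0.852 and 0.832 FPKM in tumors 1, 2 and 3, with a mean of 2.28 ± 2.50 FPKM (SD, n = 3). Tumor 1 alone stood out, and tumors 2 and 3, with 44 and 47 reads, were not distinguishable at this depth. Of the 30 comparisons between tumors over the 10 genes, this was the only pair with overlapping counting intervals. The matching share over all genes was not computed, so the count is no trait of the 10 genes. Lgals9, for the TIM-3 ligand galectin-9, had 36.3, 88.7 and 60.9 FPKM and was lowest where Havcr2 was highest. Hmgb1 and Ceacam1, also named as TIM-3 ligands, had 57.6, 37.7 and 43.8 FPKM and 0.325, 0.191 and 0.506 FPKM. Hmgb1 has near-identical copies in the genome and Ceacam1 a close relative, so their levels are uncertain.

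Macrophage markers were highest in the same tumor as Havcr2. Of 10 macrophage and monocyte markers, 9 were highest in tumor 1, against 50.5% of all genes, and the list summed to 550, 150 and 38.4 FPKM in tumors 1, 2 and 3. Lyz2, the most abundant, had 215, 33.1 and 20.3 FPKM, and each marker had reads in each tumor. Their part in the Havcr2 values was not tested.

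Tigit (ENSMUSG00000071552) had the highest mean of the 10 genes over all 3 tumors, though not without tumor 2, and its pattern was unlike that of Ctla4. TIGIT is a receptor of T and NK cells that competes with the activating receptor CD226 for the ligand PVR. Its level was 18.2, 38.6 and 7.55 FPKM in tumors 1, 2 and 3, with a mean of 21.5 ± 15.8 FPKM (SD, n = 3). Each tumor was well above 1 FPKM, with tumor 2 over 2 times the next. Cd226, in contrast, had 4.78, 0.134 and 2.23 FPKM in tumors 1, 2 and 3. The ratio of Tigit to Cd226 was therefore 3.82, 288 and 3.39 in tumors 1, 2 and 3, close to equal in tumors 1 and 3 and shifted in tumor 2. Reads could not be recovered for Cd226, so its low value in tumor 2 has no counting interval and the ratio there is imprecise. Another receptor for PVR, Cd96, had 44.6, 18.2 and 25.8 FPKM and was lowest in tumor 2. The ligands varied less for Pvr, with 3.19, 5.42 and 2.71 FPKM, than for Nectin2, which had 0.95 and 0.769 FPKM in tumors 1 and 2 and 2 reads in tumor 3.

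Cd160 and Btla bind the same partner, the receptor HVEM encoded by Tnfrsf14, but took different orders over the tumors. Cd160 (ENSMUSG00000038304), a membrane-anchored receptor of cytotoxic T and NK cells, had 5.03, 10.7 and 3.54 FPKM in tumors 1, 2 and 3, with a mean of 6.41 ± 3.75 FPKM (SD, n = 3). Btla (ENSMUSG00000052013), which is also abundant on B cells, had 15.3, 7.02 and 9.28 FPKM in tumors 1, 2 and 3, with a mean of 10.5 ± 4.28 FPKM (SD, n = 3). The ratio of Btla to Cd160 was 3.05, 0.659 and 2.63 in tumors 1, 2 and 3, so Cd160 exceeded Btla in tumor 2 and was below it in the others. Tnfrsf14 itself was more even, with 18.5, 25.0 and 16.6 FPKM. Tnfsf14, for LIGHT, which stimulates through the same receptor, had 1.94, 15.0 and 11.2 FPKM and was lowest in tumor 1. Btla had a ratio of 2.18 between highest and lowest tumor, and with median-of-ratios scaling it was 1.95, under the threshold of 2. Of 7 B-cell markers, tumor 3 had the highest value for 6, against 15.4% of all genes, and tumor 2 for 1. The list summed to 63.8, 50.6 and 121 FPKM and was led by Cd79a, with 23.1, 7.31 and 49.0 FPKM, and all 7 had reads in each tumor. Cd22, singled out after its values were seen, had 5.84, 36.5 and 13.9 FPKM. Without Cd22, likewise chosen after seeing the data, the other 6 summed to 58.0, 14.1 and 107 FPKM and were each lowest in tumor 2. Btla was also lowest there but was highest in tumor 1, where 0 of these 6 were highest. The part of B cells in the Btla values was not tested.

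CD80 and CD86 are the ligands that CTLA-4 takes from CD28. Cd80 had 1.42, 0.589 and 0.764 FPKM in tumors 1, 2 and 3, and Cd86 had 3.48, 3.20 and 0.684. Cd86 thus was at a similar level in tumors 1 and 2, where Ctla4 was at its highest and its lowest.

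**Figure D2:**
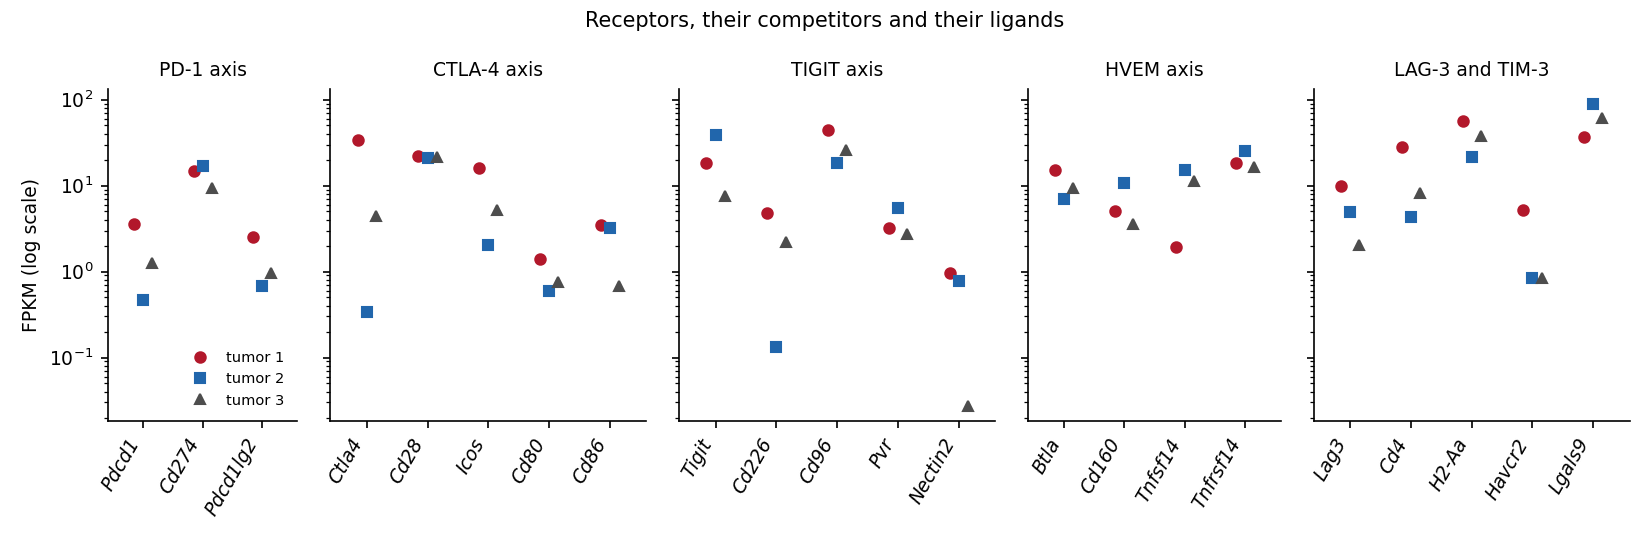
FPKM of checkpoint receptors, their competitors and their ligands in each tumor, on a log axis. Each symbol is a tumor. Cd28 lies between 21.2 and 22.2 FPKM in all 3 tumors, while Ctla4 beside it spans 0.339 to 34.0, and Cd226 falls to 0.134 in tumor 2, where Tigit is at 38.6.

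Entpd1 (ENSMUSG00000048120) encodes CD39, an enzyme of the cell surface that breaks down extracellular ATP and marks terminally exhausted T cells. Its level was 5.17, 11.8 and 2.89 FPKM in tumors 1, 2 and 3, with a mean of 6.63 ± 4.64 FPKM (SD, n = 3). Nt5e, for CD73, which acts next and yields adenosine, was flatter, with a mean of 10.8 ± 2.52 FPKM (SD, n = 3). The ratio of Entpd1 to Nt5e was 0.378, 1.33 and 0.291, so CD39 RNA exceeded CD73 RNA in tumor 2 only. Adora2a, for an adenosine receptor of T cells, was also highest in tumor 2, with 6.48, 29.3 and 9.98 FPKM. Nt5e and Adora2a were singled out after their values were seen. The part of cells other than T cells in the Entpd1 values was not tested.

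Tox (ENSMUSG00000041272), the nuclear factor needed for the exhausted state, was low in each tumor. It had 1.57, 3.66 and 2.18 FPKM in tumors 1, 2 and 3, with a mean of 2.47 ± 1.07 FPKM (SD, n = 3). Tox alone of the 10 genes was lowest in tumor 1, where Pdcd1, Ctla4, Lag3 and Havcr2 were highest, but per unit of CD3 chain RNA tumors 1 and 3 were level, with 1.92 FPKM per 100 FPKM of CD3 chain RNA in both, and its ratio was 1.79, under the threshold. The gene Gm11802 lies inside Tox on the other strand and had 1.64, 2.99 and 2.88 FPKM. Whether the libraries keep strand is not given in the sources used here. Without strand, reads from any stretch where exons of the 2 genes overlap could not be told apart, and overlap of exons was not tested. Pdzk1 overlaps the start of Cd160 on the other strand with a mean of 1.62 FPKM, and no other of the 10 genes overlaps a gene of the table.

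By mean level the order was Tigit, Cd274, Ctla4, Btla, Entpd1, Cd160, Lag3, Tox, Havcr2 and Pdcd1. All 9 neighbouring pairs in this order differed by less than the larger of their SDs, so the ranks of neighbours are not resolved with 3 tumors. Single tumors moved some means by over 1.5 times. Without tumor 1 the mean was 2.40 FPKM for Ctla4, 0.856 for Pdcd1, 0.842 for Havcr2 and 3.48 for Lag3. Without tumor 2 it was 12.9 FPKM for Tigit and 4.03 for Entpd1, and Ctla4, with 19.3, then had the highest mean. The leading gene differed from tumor to tumor. Ctla4 led in tumor 1 with 30.2% of the summed FPKM of the 10 genes, and in tumor 2 it held 0.357%, next to Pdcd1 with 0.488%, whose counting interval overlaps its own. Tigit led in tumor 2 with 40.6%. In tumor 3 Cd274 and Btla were level, with 21.6% and 21.4%.

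Together the 10 genes summed to 112.9, 95.1 and 43.3 FPKM in tumors 1, 2 and 3. The sum of tumor 1 was 2.60 times that of tumor 3. CD3 chain RNA, the mean FPKM of Cd3d, Cd3e and Cd3g, took the opposite order, with 81.8, 106 and 113 FPKM. Per 100 FPKM of CD3 chain RNA the 10 genes summed to 138, 89.6 and 38.2 FPKM, so the gap between tumors 1 and 3 was wider on that scale. The sums of tumors 1 and 2 came from different leading genes.

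**Figure D3:**
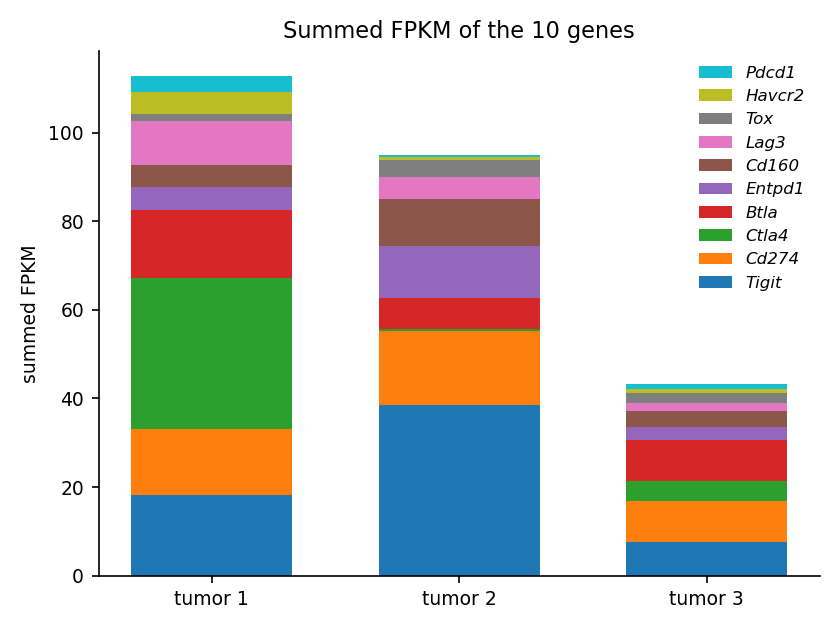
Summed FPKM of the 10 genes in each tumor, split by gene. Each bar is a tumor and starts at 0. The sums are 112.9, 95.1 and 43.3 FPKM, and Ctla4 fills 30.2% of the first bar and 0.357% of the second.

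Of the 6 possible orders of the tumors, 4 occurred. The orders that did not occur have tumor 3 first, as did 15.4% of all genes. Ctla4, Btla and Pdcd1 had tumor 1 first, then 3, then 2, an order shared by 29.5% of all genes compared. Lag3 and Havcr2 had tumor 1, 2, 3, as did 21.0% of all genes. Tigit, Cd274, Entpd1 and Cd160 had tumor 2, 1, 3, as did 17.6%, and Tox had tumor 2, 3, 1, as did 16.5%. Havcr2 is counted here by its values, although tumors 2 and 3 are too close to order.

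**Figure D4:**
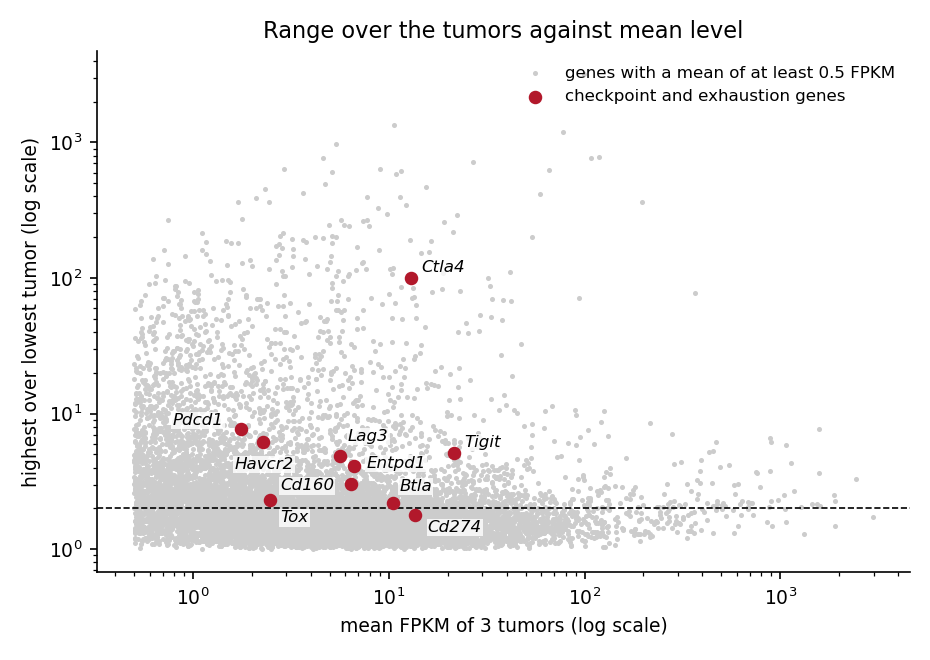
Ratio of the highest to the lowest tumor against the mean FPKM of 3 tumors, both on log axes, for 12743 genes in grey and the 10 genes in red. The dashed line is a ratio of 2. Ctla4 lies at 100.3 with a mean of 12.9 FPKM, and Cd274 is the only red point under the line.

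Other inhibitory genes also varied. The list of 16 holds receptors but also Nt5e, an enzyme gene, and the ligand genes Vtcn1 and Pdcd1lg2, and it shares Pdcd1lg2 and Ceacam1 with the ligand list, where both are counted again. Of the 16, 13 had a mean of at least 0.5 FPKM, of which 11 were above 1 FPKM in every tumor and 9 had a ratio of at least 2, with a median ratio of 3.20. For this list and those after it, the shares among the 12743 genes, which have the same minimum on the mean, are 76.2% and 38.6%, and differences between lists were not tested. The most abundant were Cd5, a brake on T-cell receptor signaling, with 40.4 ± 11.6 FPKM (SD, n = 3), Vsir with 30.3 ± 0.704 and Cd96 with 29.5 ± 13.6. Vsir, for VISTA, was the flattest of them, with 30.9, 29.5 and 30.4 FPKM. At the other end, Klrc1, for the NK-type receptor NKG2A, had 1.74, 40.6 and 1.26 FPKM, and Cd200r1 had 3.38, 0.492 and 1.92. Klrc1 has close relatives, so its level is uncertain. Vtcn1 had 0 reads in all 3 tumors, with counting intervals that end at 0.0458, 0.0742 and 0.0677 FPKM.

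Of 6 NK-cell markers, 4 were highest in tumor 2, as was Tigit, against 34.1% of all genes. Ncr1, the marker most restricted to NK cells and singled out after its values were seen, had 18, 6 and 4 reads in tumors 1, 2 and 3, and all 3 counting intervals overlap, so its tumors cannot be put in order. The list summed to 23.5, 93.8 and 50.2 FPKM. Its most abundant gene was Eomes, with 20.0, 39.5 and 45.0 FPKM, which was highest in tumor 3 and which T cells express too. Klra8, from a family of close relatives and so uncertain, had 0 reads in tumor 1. The part of NK cells or of NK receptors on T cells in the Tigit and Cd160 values was not tested.

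Of 15 ligands, 13 had a mean of at least 0.5 FPKM, of which 9 were above 1 FPKM in every tumor and 11 had a ratio of at least 2, with a median of 2.72. Among ligands with a mean of at least 1 FPKM, Tnfsf14 had the largest ratio, 7.72, followed by Lgals3 with 7.40. The abundant ligands were Lgals9 with 62.0 ± 26.2 FPKM (SD, n = 3), H2-Ab1 with 49.5 ± 29.5 and Hmgb1 with 46.4 ± 10.2. Of 11 costimulatory genes, which include the ligand gene Cd40lg, 8 were above 1 FPKM in every tumor and 7 had a ratio of at least 2, with a median of 3.03. Cd2, Cd27 and Cd28 led with 113 ± 18.8, 68.1 ± 6.71 and 21.7 ± 0.542 FPKM (SD, n = 3), all with ratios under 2. Cd226 had the largest ratio, 35.6, and Cd40lg followed with 2.45, 0.127 and 1.69 FPKM. Both were lowest in tumor 2, with 3 reads for Cd40lg.

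A list of 14 genes named for the relay of inhibitory signals holds enzymes and adaptors inside the cell and Lgals1, for a secreted galectin. Its name does not mean that every member dampens T-cell signaling. All 14 were above 1 FPKM in every tumor, against 76.2% of all genes, and 3 of 14 had a ratio of at least 2, against 38.6%, with a median ratio of 1.40. These 3 were Sh2d1a, for the adaptor SAP, with 2.80, 20.9 and 10.6 FPKM, Ptpn6, for the phosphatase SHP-1, with 65.0, 187 and 125, and Dgka, a diacylglycerol kinase, with 97.1, 36.3 and 63.5. Lgals1 was the most abundant of the list, with 319 ± 83.2 FPKM (SD, n = 3). Ptpn11, for the phosphatase SHP-2 that PD-1 recruits, had 11.1, 10.6 and 10.7 FPKM and was singled out after its values were seen.

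Of 15 transcription factors associated with exhaustion beside Tox, 14 had a mean of at least 0.5 FPKM, of which 10 were above 1 FPKM in every tumor and 10 had a ratio of at least 2, with a median of 3.42. The T-box factors Eomes and Tbx21 were the most abundant, with 34.8 ± 13.1 and 22.6 ± 14.0 FPKM (SD, n = 3). Tbx21 had 7.10, 34.3 and 26.3 FPKM and was lowest in tumor 1, as was Eomes. Id2 had 38.2, 10.9 and 12.1 FPKM and was highest there. Irf4, induced by T-cell receptor signals, had 3.57, 0.312 and 3.25 FPKM and was low in tumor 2, where Ctla4 and Pdcd1 were lowest.

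Of 13 genes of progenitor exhausted and memory T cells, 10 were above 1 FPKM in every tumor, near the 76.2% of all genes, and 10 had a ratio of at least 2, against 38.6%, with a median of 3.65. Tcf7, for TCF-1, the factor of the stem-like progenitor pool, was high in each tumor, with 175, 124 and 169 FPKM. Ccr7, for a chemokine receptor of naive and central memory T cells, had 52.7 ± 19.0 FPKM (SD, n = 3). Il7r, the receptor of the survival factor IL-7, was low in tumor 2 alone, with 30.7, 0.641 and 64.5 FPKM, whereas Myb was highest there, with 1.56, 7.45 and 0.631 FPKM.

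Effector and terminal exhaustion genes ranged widely in level. Of 15, 13 had a mean of at least 0.5 FPKM, of which 12 were above 1 FPKM in every tumor, against 76.2% of all genes, and 11 had a ratio of at least 2, against 38.6%, with a median of 3.76. Il2 had 0 reads in tumor 2. Gzmb, for the protease granzyme B, had 463, 702 and 134 FPKM, the order of tumors 2, 1 and 3 seen for Tigit and Entpd1. Ccl5, a chemokine of cytotoxic cells, was highest in tumor 3 instead, with 238, 194 and 729 FPKM. Cxcr6 had 47.1 ± 25.3 FPKM (SD, n = 3). Gzma had 63.4, 10.6 and 3.59 FPKM, and Il10, a cytokine that dampens immune responses, had 2.43, 0.201 and 0.441 FPKM (98, 5 and 12 reads) and was highest in tumor 1 with Ctla4 and Lag3.

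Further cell type markers are read against the shares of all genes highest in tumors 1, 2 and 3, which were 50.5%, 34.1% and 15.4%. Marker counts also include genes under the 0.5 FPKM required of the genes behind these shares. Of 3 CD4 T-cell markers 2 were highest in tumor 1, with sums of 33.9, 7.05 and 13.1 FPKM led by Cd4. Plasma-cell markers summed to 863, 199 and 218 FPKM, with 2 of 5 highest in tumor 1 and 3 in tumor 3, and were dominated by Jchain, with 814, 185 and 179 FPKM. Dendritic-cell markers were highest in tumor 1 for 5 of 8 genes, near the share of all genes, with sums of 17.7, 9.19 and 10.1 FPKM and Ccl22 as the most abundant. Neutrophil markers were highest in tumor 1 for 4 of 6 genes, summed to 38.3, 1.47 and 16.3 FPKM and were led by S100a9. Ly6g is not among these 4, although it had 1 read in tumor 1 and 0 reads in tumors 2 and 3. The value carried by genes without reads put it highest in tumor 2. The part of these cell types in the levels of the 10 genes was not tested.

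Markers of stroma and of pancreas were at their lowest sums in tumor 3. The 7 fibroblast markers summed to 11.8, 43.3 and 0.371 FPKM, led by Col1a1 and with 0 reads for Lum and Pdgfra in tumor 3, and 5 of 7 were highest in tumor 2, against 34.1% of all genes. All 11 pancreatic acinar markers were highest in tumor 2, against the same share, with sums of 99.8, 512 and 0.78 FPKM. Ctrb1, the most abundant, had 33.9 and 198 FPKM in tumors 1 and 2, and Ctrb1, Cel, Cpa1, Try4 and Try5 had 0 reads in tumor 3. Try4, Try5 and Prss2 are near-identical copies, so their single levels are uncertain. Endothelial markers summed to 13.7, 13.1 and 5.18 FPKM and were led by Pecam1, with 3 of 6 highest in tumor 1 and 3 in tumor 2. Tumor 3, the tumor with the lowest sum of the 10 genes, was thus the one with the least RNA of these tissues, and their part in that sum was not tested.

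**Figure D5:**
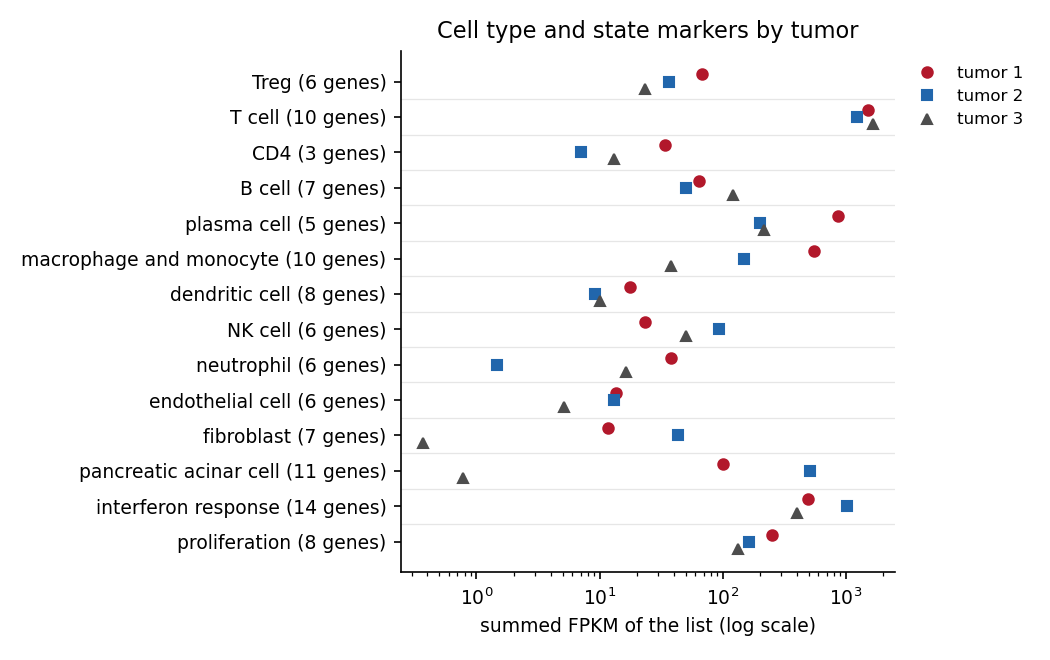
Summed FPKM of each marker list in each tumor, on a log axis. Each symbol is a tumor, and the number of genes in a list stands beside its name. The T-cell sums lie between 1232 and 1652 FPKM, while the macrophage sums run from 38.4 in tumor 3 to 550 in tumor 1 and the pancreatic acinar sums from 0.78 to 512.

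Interferon-gamma is known to induce PD-L1, and activated T cells divide as they take up checkpoint receptors. Interferon response genes summed to 497, 1020.5 and 402 FPKM, and 10 of 14 were highest in tumor 2, led by Isg15 with 26.0, 270 and 81.7 FPKM. The share of all genes highest in tumor 2 was 34.1%. The other 4 interferon genes, Gbp2, Gbp4, Cxcl9 and Ciita, were highest in tumor 1, as was Ifng, the gene of interferon-gamma, with 8.49, 1.10 and 1.12 FPKM, singled out with them after the values were seen. Proliferation genes were highest in tumor 1 for 7 of 8, against 50.5% of all genes, with sums of 251, 164 and 134 FPKM, and their most abundant gene was Pcna, with 69.2 ± 16.7 FPKM (SD, n = 3). Their part in the checkpoint levels was not tested.

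The 10 genes lie on 7 chromosomes of mm10. The nearest gene of at least 0.5 FPKM on each side was taken for each, 20 neighbours in all, and 10 of these were highest in the same tumor as the checkpoint gene beside them. Of all genes compared, 50.5% were highest in tumor 1 and 34.1% in tumor 2. A ratio of at least 2 was found for 7 of the 20, near the share of 38.6% among all genes. Ctla4 lies on chromosome 1 from 60887000 to 60915832, and Icos starts 62095 bp after it. Lag3 lies on chromosome 6 from 124904361 to 124911705, between Cd4 and Ptms. Ptms, 1976 bp away, had 9.09, 41.9 and 2.62 FPKM, an order unlike that of Lag3 and Cd4. Entpd1, on chromosome 19 from 40612366 to 40741602, had flat neighbours, with ratios of 1.48 for Tctn3 and 1.67 for Ccnj.

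Promoter sequences were read from a set of windows at RefSeq starts (GRCm38.p6, the build mm10). Each ran from 250 bases before to 50 bases after a start. Of the 10 genes 8 had a window in this set, 10 windows in all with 2 starts for Cd160 and Entpd1. Lag3 and Tox had none in it and are named only. CpG dinucleotides, the sites that DNA methyltransferases act on, numbered 3 to 23 in these windows, against a median of 7 in 32851 windows of 27025 genes. Shown are windows of 2 genes highest in tumor 1 and 2 genes highest in tumor 2, 5′ to 3′ on the strand of the gene, with CpG in capitals. Methylation of these sites was not analysed here.
Ctla4, chr1:60908775-60909074, plus strand, 8 CpG: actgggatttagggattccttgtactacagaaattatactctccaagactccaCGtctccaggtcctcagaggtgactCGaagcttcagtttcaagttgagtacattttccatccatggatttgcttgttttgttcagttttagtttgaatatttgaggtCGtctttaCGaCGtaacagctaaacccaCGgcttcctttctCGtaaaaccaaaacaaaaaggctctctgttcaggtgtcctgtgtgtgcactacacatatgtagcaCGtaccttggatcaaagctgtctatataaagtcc
Havcr2, chr11:46454681-46454980, plus strand, 3 CpG: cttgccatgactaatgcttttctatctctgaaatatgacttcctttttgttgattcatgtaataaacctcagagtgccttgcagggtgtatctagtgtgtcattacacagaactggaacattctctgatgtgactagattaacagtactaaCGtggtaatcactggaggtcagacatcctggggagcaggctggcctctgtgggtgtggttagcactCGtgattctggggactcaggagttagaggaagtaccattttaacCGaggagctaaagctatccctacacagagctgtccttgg
Tigit, chr16:43664135-43664434, minus strand, 5 CpG: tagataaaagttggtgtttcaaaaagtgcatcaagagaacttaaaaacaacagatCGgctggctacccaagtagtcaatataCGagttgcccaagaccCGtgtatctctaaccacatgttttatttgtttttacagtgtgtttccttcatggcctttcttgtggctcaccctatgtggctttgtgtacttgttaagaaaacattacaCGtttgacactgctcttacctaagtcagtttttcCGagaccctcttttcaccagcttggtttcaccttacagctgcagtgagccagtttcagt
Entpd1, chr19:40612116-40612415, plus strand, 23 CpG: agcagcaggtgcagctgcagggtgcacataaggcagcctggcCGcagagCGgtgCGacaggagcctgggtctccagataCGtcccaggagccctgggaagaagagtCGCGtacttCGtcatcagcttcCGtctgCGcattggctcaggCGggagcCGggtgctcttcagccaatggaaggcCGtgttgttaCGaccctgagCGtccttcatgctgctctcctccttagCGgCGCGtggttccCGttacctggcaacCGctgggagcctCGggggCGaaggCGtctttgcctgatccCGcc

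The windows differed in CpG content, and a relation to the tumor with the highest level was not tested. Ctla4 with 8 CpG and Cd274 with 15 were above the median, as was Entpd1 with 23 at its first and 10 at its second start, while Havcr2, Tigit, Btla and Pdcd1 had 3, 5, 5 and 5, and both Cd160 windows had 6. Of all windows 78.5% had fewer CpG than the first Entpd1 window and 23.3% had fewer than that of Havcr2. The file's Ctla4 gene starts upstream of the RefSeq start used here.

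Motifs were searched by their letters on both strands, with N for any base. TATAAA, the core of a TATA box, was in 13.6% of all windows and among the 10 genes in that of Ctla4, 41 bases after the start. GAAANNGAA, the core of an interferon response element, was in 8.56% of all windows and in those of Btla, Cd274 and Ctla4, starting 210, 76 and 166 bases before the start, for Cd274 and Ctla4 on the other strand. TTCNNNGAA, bound by STAT factors, was in 8.30% of all windows and in 1 of the 2 windows of Cd160. TGANTCA, bound by AP-1, was in 7.81% and in that of Havcr2, 200 bases before the start. The last 2 motifs read the same on both strands, so each match was counted once. The windows of Tigit, Pdcd1 and Entpd1 held none of these letters. GAAANNGAA and TTCNNNGAA share letters, and no window of the 10 genes held both. A match is a description of the sequence and not a bound site.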

How the data were processed

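RNA-seq (paired-end, 150 bp) of 3 Dnmt3b+/- PTCL was analysed. Per the methods of the authors, trimmed reads were mapped with STAR (mm10), those of mapping quality 50 or more were summarised by gene in SeqMonk, and linear FPKM were deposited. FVB reads were thus aligned to the C57BL/6 reference, and the effect of strain differences was not tested. A gene without reads carries the value of 0.9 read, from which the depth of each library followed. With exon lengths of GENCODE M21, 91.5% to 91.6% of the values in a tumor were whole reads within 0.005. Genes at 0.9 read do not count against this share. For 12 of 211 list genes, Tigit and Btla among them, this length gave no whole reads, and the only nearby length that did in all 3 tumors was used (963 and 3257 bases for those 2). Where none was found, no reads are given. Since FPKM are no counts, count models were not used, and with 1 group no test was made. Exact Poisson 95% intervals were computed from the reads. In ratios, values under the FPKM of 3 reads were raised to it where an exon length was known. Background genes had a mean of at least 0.5 FPKM.

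Named genes are the 10 genes, all listed ligands, Dnmt3b, the 3 most abundant and the 2 genes with the largest ratio (mean of at least 1 FPKM) of each of 7 context lists, and the most abundant gene and markers without a read of 14 marker lists. Of these, 1 gene of the progenitor and memory list is not reported here. Others are marked as singled out after their values were seen. Members and lists were chosen with earlier results of these data known. Pairs of genes and chromosome neighbours were chosen after seeing the data. Alternatives were 2 rescalings, CD3 scaling, other thresholds, a pseudocount and each tumor left out. The steps were tested on simulated data. Values were computed in Python 3.11 with NumPy 2.4.6, SciPy 1.17.1 and pandas 2.3.3, and plots drawn with matplotlib 3.10.9.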

Additional observations from a re-analysis of the deposited data

How the results depend on the processing

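Rescaling each tumor's FPKM to sum to 1000000 multiplies all levels, by 5.30, 4.83 and 4.47 in tumors 1, 2 and 3. It gave summed levels of 598, 459 and 194 in tumors 1, 2 and 3, and means of 8.92 for Pdcd1, 67.3 for Ctla4, 28.4 for Lag3, 11.7 for Havcr2, 105.7 for Tigit, 31.3 for Cd160, 52.2 for Btla, 32.5 for Entpd1, 11.9 for Tox and 67.2 for Cd274. All 10 genes were then above 1, a level that these factors make easier to pass for every gene. The share of all genes above 1 is not given on this scale. Median-of-ratios factors kept the means of the deposited FPKM within 1 SD, shifted the median of all genes by -0.14, 0.02 and 0.13 (log2) in tumors 1, 2 and 3, and gave 8 genes at a ratio of at least 2 (36.6% of all genes) and 5 genes with a single tumor over 60% (10.6%). A share of 50% gave 7 such genes (24.3%). With tumors 1, 2 and 3 left out in turn, 6, 5 and 8 genes had a ratio of at least 2, against 19.5%, 20.6% and 28.3% of all genes. In the same order 8, 8 and 9 had a single tumor over 60%, since 2 tumors then share the sum. The shares of all genes were 37.4%, 39.5% and 51.7%. The count of genes at a ratio of at least 2 was 10 at 1.5 times (65.9% of all genes), 7 at 3 times (20.1%), and 7 where the counting intervals had to be at least 2 times apart. For the interval setting the share of all genes was not computed, so its count cannot be set against one. With no filter on the mean, 24.6% of all genes had a ratio of at least 2. Dividing by CD3 chain RNA shifted the median by 0.29, -0.09 and -0.18 (log2), and 6 genes were then highest in tumor 1 and 4 in tumor 2. The shares of all genes highest in each tumor are not given on this scale, so these counts cannot be set against them. The scalings of the highest tumor and of the context lists were added after seeing the data, as were the Treg sum without Il2ra and the B-cell sum without Cd22, and scaling the lists moved no list's count by more than 1. No paired analysis was possible because the RNA-seq values come from a single group. The depth limits the lowest values, 15 reads of Ctla4 and 17 of Pdcd1 in tumor 2.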

Other observations

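Several genes had their lowest value in tumor 2. Besides Ctla4, Cd226 and Il7r, these included Ikzf2, for the factor Helios, with 1.62, 0.0318 and 0.90 FPKM in tumors 1, 2 and 3, and S1pr1, for the receptor that guides T cells out of lymph nodes, with 62.2, 5.83 and 42.1 FPKM. Klf2 had 48.6, 12.7 and 41.7 FPKM and Lef1 had 8.71, 2.12 and 8.17. In the other direction, Klre1, an NK-type receptor gene, had 2136 reads in tumor 2 and 26 and 4 reads in tumors 1 and 3, and Fasl had 8.08, 53.4 and 15.1 FPKM. These genes were chosen after their values were seen.

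In tumor 1, Il2ra had 43.2 FPKM against 9.98 and 1.96 in tumors 2 and 3, and Ifng had 8.49 against 1.10 and 1.12. Cxcl9, a chemokine induced by interferon-gamma, had 37.8, 1.77 and 0.447 FPKM and was highest in tumor 1, whereas Isg15 was highest in tumor 2. Marco, a scavenger receptor of macrophages, had 111 FPKM in tumor 1 against 2.44 and 1.60. These genes too were chosen after their values were seen.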
